A study of Canis lupus familiaris with 16 samples.

Results

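The transcriptomes of 4 canine fibrosarcomas (FS) were set against those of 6 canine peripheral nerve sheath tumors (PNST), which are 10 of the 16 tumors measured. The remaining 6 tumors, all perivascular wall tumors (PWT), were left out of the comparison. Tumors were taken by the molecular identity that the labels give them: S1-02, S1-11, S1-12 and S2-06 as FS, and S1-03, S1-04, S1-05, S1-09, S1-10 and S2-07 as PNST. That identity was partly set by the expression of these same tumors. S1-10 was a PWT on histology, and the fifth FS on histology (S2-08) carries the identity PWT, so the grouping is not independent of the genes compared.

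All tumors came from dogs and were archived as formalin-fixed, paraffin-embedded blocks, from which total RNA was depleted of ribosomal RNA and sequenced. The FS came from the shoulder, stifle, metacarpus and hip of dogs aged 9 to 13 years and had grades 1/2 (S1-02), 2 (S1-11), 2 (S1-12) and 3 (S2-06). The PNST came from the hip, knee, ilium, thigh and a forelimb digit of dogs aged 8 to 13 years and had grades 1 (S1-04, S1-05, S2-07), 1/2 (S1-09) and 2 (S1-03, S1-10). The authors' methods describe no treatment, engineered allele or culture of these tumors. S1-04 and S1-05 have identical clinical entries, so the 6 PNST may come from 5 dogs.

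FS is a malignant tumor of cells that resemble fibroblasts, the cells that secrete and remodel the collagen matrix of connective tissue. PNST arises in the sheath of peripheral nerves, which holds Schwann cells, perineurial cells and fibroblasts, and its diagnosis on sections often draws on markers of the Schwann cell lineage. Both are soft tissue sarcomas of the skin and subcutis of dogs and can look alike under the microscope.

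Between 507728 (S1-12) and 2781899 counts per FS and between 1545839 and 4311876 counts per PNST fell on genes. The median was 2023563.5 in FS and 2984704 in PNST, and S1-12 alone lay below the PNST range. Levels are given as CPM, the counts scaled to a common library total, with factors between tumors from the trimmed mean of M-values (TMM). Skeletal muscle genes summed to 12171 CPM in S1-11 and to 62.3 to 112 CPM in each of the other 9 tumors, mostly from the titin gene *TTN*. Keratinocyte genes summed to 1427 to 2648 CPM in 2 FS (S1-02, S1-12) and 2 PNST (S1-04, S1-05) and to 235 to 653 CPM in the other 6 tumors. Without these 4 tumors 288 genes were higher and 132 lower. In bulk tissue, fewer cells of a type and less RNA per cell cannot be told apart.

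Of 14659 genes with enough counts to test, FS exceeded PNST in 509 (3.47%) and lay below PNST in 362 (2.47%), by edgeR's quasi-likelihood test at a Benjamini-Hochberg adjusted p under 0.05 and an absolute log2 fold change over 1. These 871 genes are called differentially expressed genes (DEGs) here, and all fold changes are FS relative to PNST. Since the identity of S1-10 was set by expression, its place in PNST bears on these counts. The median log2 fold change over all tested genes was 0.03, and that of the DEGs was 2.04 among the higher and −2.10 among the lower. The 4 FS and 6 PNST did not overlap in level for 341 of the higher and 313 of the lower DEGs, while 3.39% and 4.09% of all tested genes were apart in these directions. Protein-coding genes made up 84.6% of the tested genes, 94.3% of the higher DEGs (480) and 80.7% of the lower ones (292). Long noncoding RNA genes made up 9.2% of the tested genes, 3.5% of the higher DEGs (18) and 13.8% of the lower ones (50). With 1 tumor left out at a time, 192 of the higher and 156 of the lower DEGs were called in each of the 10 fits. When S1-10, the tumor moved into PNST, was left out, 245 genes were higher and 209 lower. The counts were 313 and 234 without S1-03 and 333 and 232 without S1-05. With S1-04 and S1-05, which may be from 1 dog, taken as 1 tumor, 390 genes were higher and 278 lower, and 24 mitosis genes were higher in place of 31. With the tumors grouped by histology instead, no gene was called by edgeR. An unadjusted p under 0.05 was found for 1579 of 14488 genes, against 3334 of 14659 in the main grouping.

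**Figure D1:**
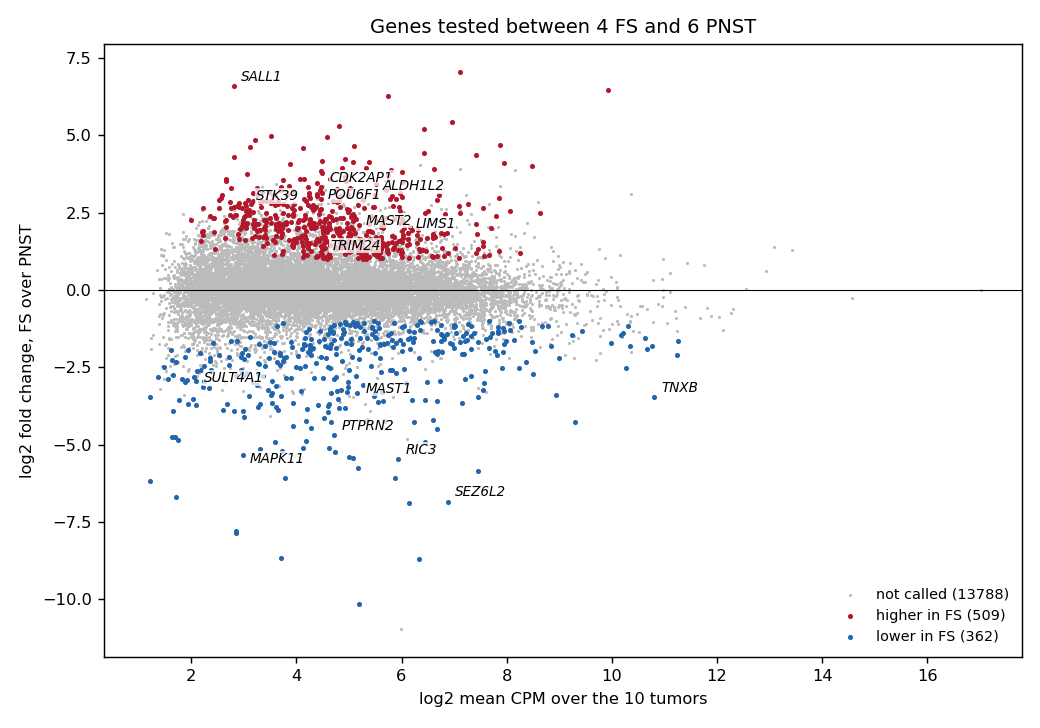
Each point is 1 of the 14659 tested genes, with its mean level over the 10 tumors (log2 CPM, x axis) and its log2 fold change, FS relative to PNST (y axis). The 509 genes called higher in FS are red, the 362 called lower are blue, the others are grey, and genes among the 8 of smallest p in each direction are named where the text gives them. *SEZ6L2*, *RIC3* and *MAPK11* lie more than 5 units below 0.

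The 8 named genes with the smallest p among those higher in FS included kinases, transcription factors and a mitochondrial enzyme. FS values are given for S1-02, S1-11, S1-12 and S2-06 in this order, and for the 6 PNST as the lowest, median and highest. *SALL1*, a zinc finger transcription factor of kidney and limb development, stood at 10.1, 26.6, 22 and 10.9 CPM in FS and at 0, 0 and 0.563 CPM in PNST. It was nearly absent from PNST, with 110 counts in the 4 FS against 2 in the 6 PNST, a ratio of 124 after scaling (95% counting interval 33.5 to 1035; adjusted p = 0.00149). *ALDH1L2*, the mitochondrial formyltetrahydrofolate dehydrogenase, was at 161, 118, 29.3 and 76 CPM in FS and at 6.66, 12.3 and 15.3 CPM in PNST (log2 fold change 3.05 ± 0.40 SE, adjusted p = 0.0031). All FS lay above all PNST, with S1-12 the lowest FS.

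*MAST2*, a microtubule-associated serine/threonine kinase, measured 49.9, 84.3, 45.8 and 89.8 CPM in FS and 10.8, 13.3 and 16.7 CPM in PNST (log2 fold change 2.29 ± 0.26 SE, adjusted p = 0.00172). *STK39*, a kinase that regulates chloride cotransporters, measured 44.2, 33.4, 42.1 and 58 CPM in FS and 3.94, 6.79 and 10.8 CPM in PNST (2.61 ± 0.31 SE, adjusted p = 0.00186). Neither gene had an overlap between the groups. *LIMS1*, an adaptor of integrin adhesions, was at 138, 104, 128 and 122 CPM against 24, 32.3 and 48.4 CPM (1.84 ± 0.24 SE, adjusted p = 0.0031). *CDK2AP1*, a binding partner of the cell cycle kinase CDK2, was at 47.4, 59.4, 51.3 and 34.2 CPM against 2.66, 4.32 and 9.69 CPM (3.13 ± 0.40 SE, adjusted p = 0.0031). S2-06 was the lowest FS for this gene and still lay above every PNST.

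*TRIM24*, a chromatin-reading ubiquitin ligase, measured 32, 38.5, 44 and 45.1 CPM in FS and 8.76, 11.7 and 13.3 CPM in PNST (1.83 ± 0.23 SE, adjusted p = 0.0031). *POU6F1*, a POU-domain transcription factor, measured 33.4, 51.5, 58.6 and 31.8 CPM in FS and 3.55, 7.05 and 11.4 CPM in PNST (2.58 ± 0.34 SE, adjusted p = 0.0031). Again no FS fell within the PNST range. Except for *SALL1*, all these genes kept their call whichever tumor was left out and in the other alternatives, apart from grouping by histology. *SALL1* passed the count filter only through the FS, because PNST hold almost none of it, and falls under the filter once any FS is left out. It could be tested in 15 of the 23 alternatives and was called in each of those 15.

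Among the genes lower in FS, those with the smallest p included *SEZ6L2*, *RIC3* and *PTPRN2* of the neuronal and synaptic list, and several were close to 0 in FS. *SEZ6L2*, a neuronal cell-surface protein, had the smallest p of all genes, at 1.8, 1.13, 1.83 and 1.9 CPM in FS and 130.2, 203 and 271 CPM in PNST (log2 fold change −6.84 ± 0.38 SE, adjusted p = 4.17e-06). *RIC3*, a chaperone of nicotinic acetylcholine receptors, was at 2.87, 0.566, 3.66 and 2.38 CPM against 62.3, 107 and 128 CPM (−5.47 ± 0.43 SE, adjusted p = 0.000118). Both lay under 4 CPM in every FS and above 60 CPM in every PNST.

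*PTPRN2*, a phosphatase-like protein of dense-core vesicles, measured 1.8, 1.13, 0 and 2.38 CPM in FS and 18.4, 44.1 and 66.8 CPM in PNST (−4.70 ± 0.53 SE, adjusted p = 0.00172). *MAPK11*, the beta form of p38 kinase, measured 0.719, 2.26, 0 and 0.95 CPM in FS and 22.3, 33.8 and 71.7 CPM in PNST (−5.11 ± 0.58 SE, adjusted p = 0.00172). Every FS lay under 3 CPM for both genes. *MAST1*, the neuronal relative of *MAST2*, was at 6.47, 9.62, 5.49 and 8.55 CPM against 27.6, 56.6 and 65.7 CPM (−2.80 ± 0.32 SE, adjusted p = 0.00172), opposite in direction to *MAST2*. *SULT4A1*, a sulfotransferase known from brain, was at 3.59, 3.39, 1.83 and 2.85 CPM against 18.9, 23 and 26.6 CPM (−2.86 ± 0.30 SE, adjusted p = 0.00149). *TNXB*, which encodes the matrix glycoprotein tenascin-X, was lower in FS but well above 0 in both groups, at 362, 282, 212 and 156 CPM against 1884, 2965 and 3428 CPM (−3.46 ± 0.37 SE, adjusted p = 0.0015). All 7 kept their call whichever tumor was left out and in the other alternatives, apart from grouping by histology. *SEZ6L2*, *RIC3*, *PTPRN2* and *MAPK11* held under 10 counts in every FS and passed the count filter through the PNST alone. With 6 PNST they pass it whichever tumor is left out, unlike *SALL1*. That they stayed tested was therefore fixed by the filter and the group sizes.

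**Figure D2:**
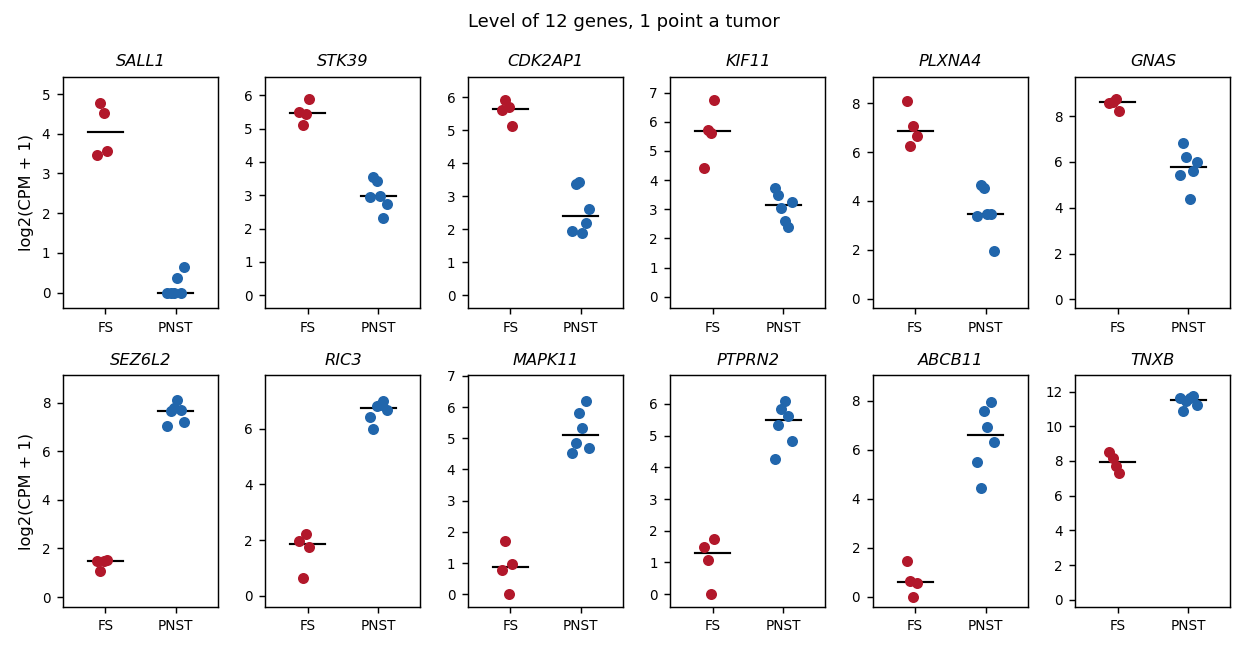
Level of 12 genes (6 higher in FS above, 6 lower below) in each of the 4 FS (red) and 6 PNST (blue) as log2(CPM + 1) on the y axis, 1 point per tumor with a bar at the group median. In no panel do the groups overlap. *SEZ6L2*, *RIC3* and *MAPK11* lie near 0 in all FS, while *TNXB* is well above 0 in both groups.

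To describe the genome by function, 56 gene lists and 38 gene families were counted, which hold 2875 of the tested genes, with 170 of the higher and 87 of the lower DEGs. The lists share genes with each other, so their counts are not independent. The mitosis list had the largest number and share of higher genes among lists with at least 10 tested members, and the neuronal list the largest number and share of lower genes. In 21 lists no member was called. The counts below are to be read against 3.47% higher and 2.47% lower over all tested genes. Counts at an unadjusted p under 0.05 are to be read against 3334 of 14659 tested genes. For lists of 4 or more called genes in a direction, tumors whose removal moves the count by over 1.5 times are named.

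**Figure D3:**
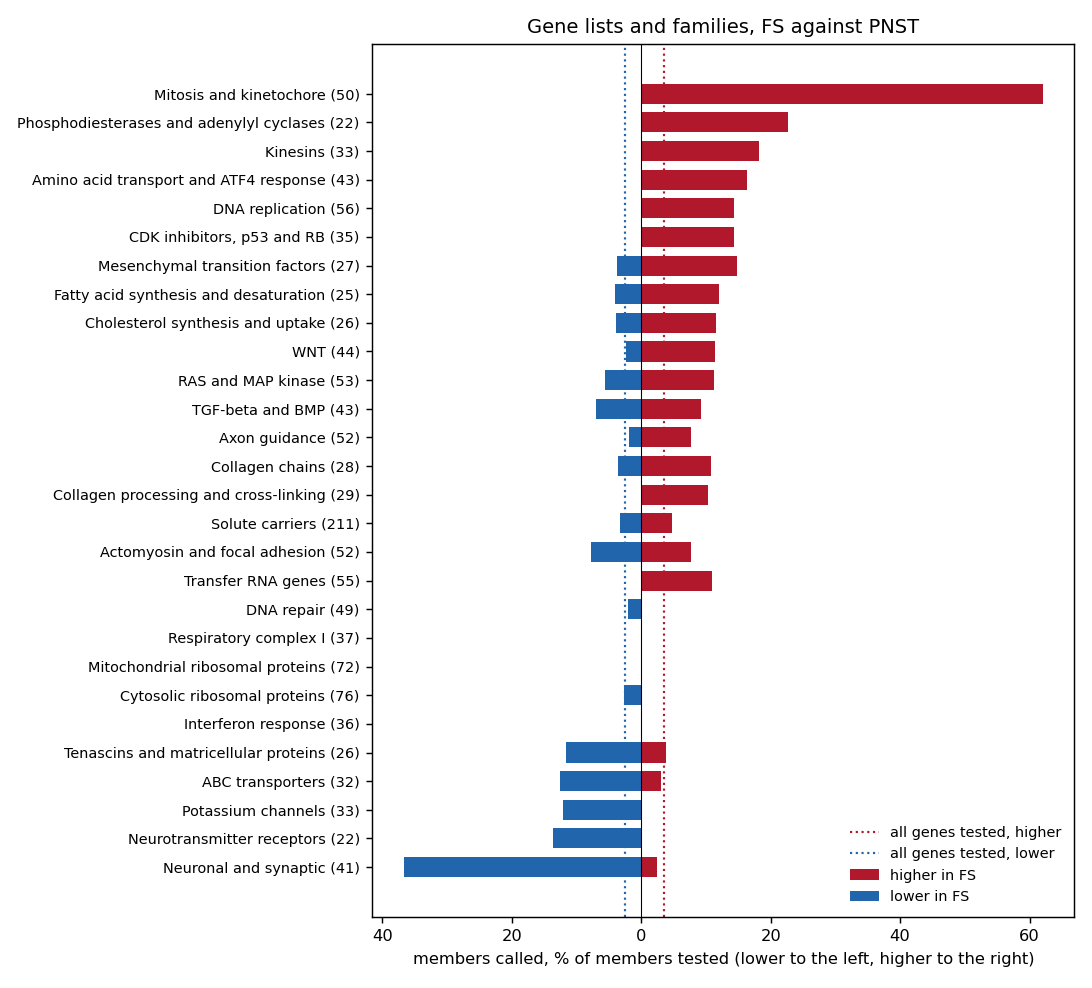
For 28 gene lists and families (y axis, number of tested members in brackets), the percent of tested members called higher (red, right) or lower (blue, left) in FS is on the x axis. Dotted lines mark the percent over all tested genes, 3.47% higher and 2.47% lower. Mitosis (31 of 50 higher) and neuronal genes (15 of 41 lower) stand furthest from these lines among lists with at least 10 tested members.

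Of the lineage markers, *SOX10*, *S100B* and *ERBB3* were tested and not called, and neither were *COL1A1*, *COL3A1*, *FAP*, *PDGFRA* and *VIM* among fibroblast genes. Of 30 listed Schwann cell and neural crest genes, 29 are in the counts and 14 passed the count filter, none of which was called by edgeR (1 higher and 2 lower at an unadjusted p under 0.05, and 1 lower by DESeq2). Their median log2 fold change was −0.27, with 11 of the 14 below 0 and 3 above. *SOX10*, the defining transcription factor of the lineage, was at 7.55, 1.7, 3.66 and 1.43 CPM in FS and 2.42, 3.84 and 4.73 CPM in PNST, so that FS and PNST ranges overlapped (−0.01 ± 0.53 SE, adjusted p = 0.996). *S100B*, a calcium-binding protein of Schwann cells, was at 0.359, 1.7, 0 and 9.98 CPM in FS and 1.43, 8.38 and 74.8 CPM in PNST (−2.51 ± 1.21 SE, adjusted p = 0.243). The highest PNST for *S100B* was S1-09 and the highest FS S2-06.

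*ERBB3*, the neuregulin receptor of Schwann cells, was at 33.4, 17.5, 34.8 and 5.23 CPM in FS and 8.87, 16.1 and 45.4 CPM in PNST (−0.03 ± 0.57 SE, adjusted p = 0.985), again with overlap. The nerve growth factor receptor gene *NGFR* failed the count filter, and its highest value was 63.4 CPM in S1-11, an FS. *PMP22*, a myelin gene looked up after the data were seen, ranged from 125 to 454 CPM in PNST and from 74.7 to 161 CPM in FS (adjusted p = 0.0825).

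Fibroblast genes were called at shares near those over all tested genes. Of 27 tested members 1 was higher and 1 lower (3.70% each, against 3.47% and 2.47%). The median log2 fold change was −0.48. At an unadjusted p under 0.05, 6 were higher and 4 lower, and DESeq2 called 3 higher and 4 lower. *COL1A1*, the type I collagen chain, was at 8626, 42625, 10952 and 5656 CPM in FS and 3986, 6048 and 13375 CPM in PNST (1.29 ± 0.58 SE, adjusted p = 0.212), with S1-11 far above all other tumors. *COL3A1* (1.39 ± 0.62 SE), the fibroblast activation protein gene *FAP* (−0.95 ± 0.50 SE), the receptor gene *PDGFRA* (−1.18 ± 0.36 SE) and the vimentin gene *VIM* (−0.56 ± 0.36 SE) also missed the threshold, with adjusted p of 0.205, 0.287, 0.0736 and 0.395. The 2 members called by edgeR went in opposite directions. *TWIST2*, a transcription factor of mesenchymal cells, was higher in FS at 6.83, 26, 222 and 14.7 CPM against 2.37, 3.79 and 6.5 CPM (3.95 ± 0.82 SE, adjusted p = 0.0184), and S1-12 stood far above the other FS. *CLEC3B*, which encodes the plasminogen-binding protein tetranectin, was lower at 8.26, 5.09, 1.83 and 15.7 CPM against 89.9, 153 and 234 CPM (−4.20 ± 0.50 SE, adjusted p = 0.00192).

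Genes of cell division were higher in FS. Of 50 tested genes of mitosis and the kinetochore, 31 (62.0%) were higher and none was lower, and the median log2 fold change was 1.80, against 3.47% and 0.03 over all tested genes. DESeq2 called 34 of the same 50 genes higher and 1 lower, and 38 of all 61 listed genes higher without the count filter. Summed over the list, S1-02, S1-11, S1-12 and S2-06 reached 1091, 2467, 1223 and 4231 CPM, and the PNST 798 to 903 CPM (median 831). The sums did not overlap, but S1-02 stood close to PNST and S2-06, the only tumor of grade 3 among those compared, stood highest. Tumor grade is scored in part from mitotic figures and differed between the groups, and its part in this result was not tested. Without S2-06, 16 members were higher, and without S1-10, 18 were.

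*KIF11*, the kinesin that separates the spindle poles, was at 20.1, 52.1, 47.6 and 107 CPM in FS and 4.3, 7.86 and 12.1 CPM in PNST (log2 fold change 2.84 ± 0.43 SE, adjusted p = 0.00649). *CDK1*, the kinase that starts mitosis, was at 25.5, 39.6, 27.5 and 181 CPM in FS and 4.14, 5.24 and 9.13 CPM in PNST (3.53 ± 0.55 SE, adjusted p = 0.00663). Every FS was above every PNST for both, with S1-02 the lowest FS and S2-06 the highest. *KNL1*, a scaffold of the outer kinetochore, and *KIF20A*, a kinesin of cytokinesis, were also higher, by 2.45 ± 0.40 SE and 3.09 ± 0.51 SE on the log2 scale (adjusted p = 0.00822 and 0.00822). Of the 31 genes, 16 were called whichever tumor was left out. Other members missed the threshold, among them *AURKA* (1.30 ± 0.47 SE, adjusted p = 0.121) and *AURKB* (−0.62 ± 0.53 SE), chosen here after their values were seen.

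**Figure D4:**
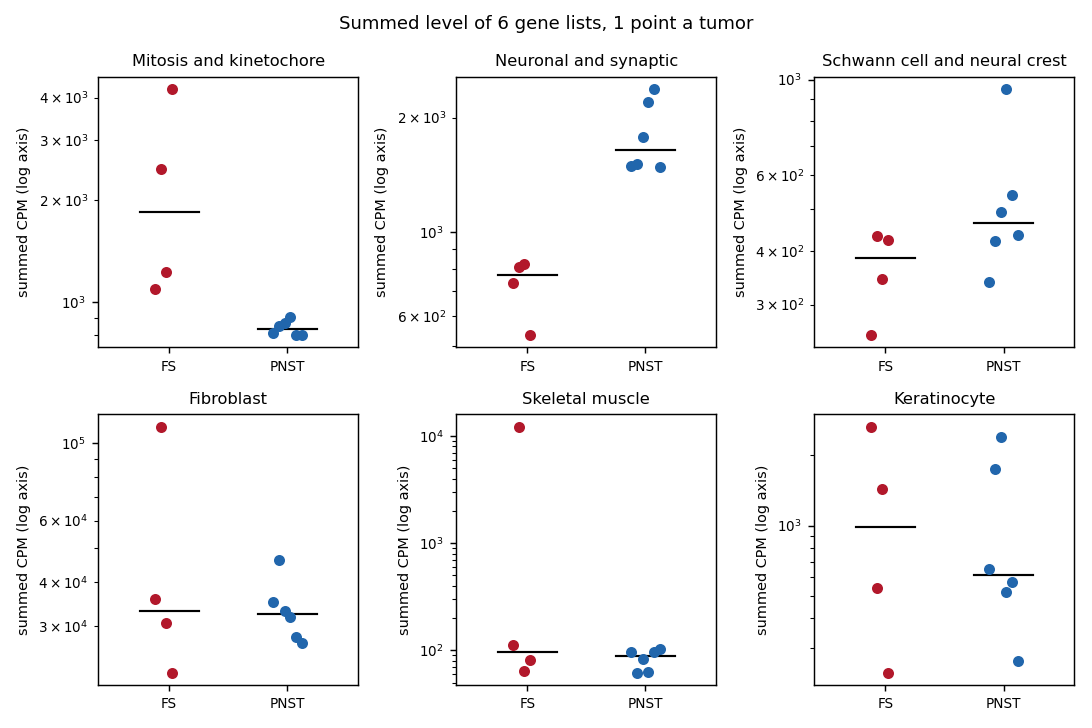
Summed level (CPM, log axis) of 6 gene lists in each of the 4 FS (red) and 6 PNST (blue), 1 point per tumor with a bar at the group median. FS lie above all PNST for the mitosis list and below all PNST for the neuronal list. The groups overlap for the other 4 lists, with S1-11 alone at 12171 CPM for skeletal muscle genes.

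DNA replication genes were higher in smaller number, 8 of 56 (14.3%) with none lower and a median log2 fold change of 0.84. Of the 8, 4 held whichever tumor was left out, and the count was 4 without S1-11 and 5 without S1-05 or S1-10. *RRM2*, the small subunit of ribonucleotide reductase, was at 37.4, 105, 31.1 and 75.5 CPM in FS and 7.53, 10.6 and 14.7 CPM in PNST (2.51 ± 0.37 SE, adjusted p = 0.0052). *ATAD2*, *E2F7* and *MCM6*, respectively a chromatin ATPase, an E2F family repressor and a subunit of the replicative helicase, rose by 1.38 ± 0.23 SE, 2.26 ± 0.41 SE and 1.83 ± 0.38 SE (adjusted p = 0.00861, 0.0103 and 0.0184). DNA repair genes did not share this direction. Of 49 tested, none was higher and 1 was lower: *XRCC4*, which works in the joining of broken DNA ends, at 13.7, 17, 11 and 11.9 CPM against 25.4, 33.3 and 35.5 CPM (−1.26 ± 0.24 SE, adjusted p = 0.0124).

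Among 35 genes of the CDK inhibitor, p53 and RB pathways, 5 were higher and none lower. They included *CDKN2C*, an inhibitor of CDK4 and CDK6, by 2.41 ± 0.39 SE, and *CDK6* itself by 2.58 ± 0.43 SE (adjusted p = 0.00808 and 0.00855). Of 33 kinesins 6 were higher and none lower, and 5 of these 6 are also in the mitosis list. The kinesin median was 0.30, and 3 were higher without S1-10. Of 34 cyclins and CDKs 5 were higher and none lower, with a median of 0.46. Of these 5, 2 are in the mitosis list, and others, among them *CDK6*, are in the CDK inhibitor, p53 and RB list. *FOXM1*, a forkhead factor that drives mitotic genes and is already counted in the mitosis list, rose by 2.09 ± 0.46 SE (adjusted p = 0.0215). Of 26 tested histone genes, 25 had a log2 fold change above 0 and 2 were called, both higher. *H3C8*, a replication-dependent H3 gene, was at 7.55, 32.2, 16.5 and 37.1 CPM against 1.79, 4.79 and 6.66 CPM (2.41 ± 0.50 SE, adjusted p = 0.0181), and *H2AZ1*, an H2A variant gene, rose by 1.48 ± 0.31 SE (adjusted p = 0.0198).

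Neuronal and synaptic genes went the other way. Of 62 listed, 41 could be tested, of which 15 (36.6%) were lower in FS, 1 was higher and 25 were not called, with a median log2 fold change of −0.88, against 2.47% and 0.03 over all tested genes. Their summed level was 732, 810, 820 and 534 CPM in the FS and 1485 to 2374 CPM in the PNST (median 1644). The sums did not overlap, and S1-10 was the highest PNST. Of the 15 lower genes, 10 were called whichever tumor was left out, and in the alternatives other than grouping by histology the number lower lay between 10 and 21. Genes of this list and of the channel and receptor families share members.

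The lower genes covered several parts of the nerve cell. Those of smallest p included *SEZ6L2*, *RIC3* and *PTPRN2*, given above, and the others named here were picked after their values were seen. *ELAVL3*, a neuronal RNA-binding protein, fell by 5.4 on the log2 scale and *CHGA*, the chromogranin of secretory granules, by 3.35 (adjusted p = 0.0031 and 0.00657). *UNC13A*, which primes synaptic vesicles, and *UNC79*, a regulator of the sodium leak channel, fell by 4.90 and 5.42 (adjusted p = 0.00822 and 0.00846). *ELAVL3* was at 0.359, 2.83, 1.83 and 0.475 CPM in FS and 14.6, 55.4 and 79.4 CPM in PNST, with no overlap. *PTPRN*, the partner of *PTPRN2* in dense-core vesicles, measured −2.45 ± 0.41 SE, *CHRNB2*, a nicotinic receptor subunit, −2.85 ± 0.52 SE, and *SYP*, the vesicle protein synaptophysin, −4.39 ± 1.06 SE (adjusted p = 0.00855, 0.0104 and 0.0312). *SYP* lost its call when any 1 of 6 tumors (S1-02, S1-05, S1-09, S1-10, S1-11, S2-06) was left out, up to an adjusted p of 0.0764 without S2-06. The higher gene was *HOMER1*, a postsynaptic scaffold (1.48 ± 0.38 SE, adjusted p = 0.0388), which lost its call without S1-11 (adjusted p = 0.127) and without each of 5 PNST (S1-03, S1-04, S1-05, S1-09, S1-10). *STMN2*, a microtubule regulator of growing neurons, had no count in any FS and 1.3, 27.2 and 447 CPM in PNST, a wide range, and missed the threshold (adjusted p = 0.0619).

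Some further genes of nerve and secretion that were lower in FS were looked up after the data were seen. Their direction follows from that choice and adds nothing to the list counts. *GDAP1*, a mitochondrial protein whose mutations cause a peripheral neuropathy, had no count in any FS and was at least 50.6-fold higher in PNST, against a floor of 3 counts over the FS. The neuronal RNA-binding gene *CELF5* was at least 13.3-fold higher on the same basis. *NFASC*, a cell adhesion protein of the node of Ranvier, was at 11.9, 4.53, 3.66 and 0.475 CPM in FS and 44.5, 55.3 and 64.5 CPM in PNST (−3.33 ± 0.54 SE, adjusted p = 0.00817). *SCRT1*, a neural transcription factor, had a ratio of 77.1 between PNST and FS (95% counting interval 21.2 to 639). *REST*, the repressor that silences neuronal genes outside the nervous system, was higher in FS at 88, 83.7, 104 and 57.5 CPM against 28, 32.1 and 43.3 CPM (1.34 ± 0.23 SE, adjusted p = 0.00883), with every FS above every PNST. Whether this is linked to the lower neuronal genes was not tested.

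**Figure D5:**
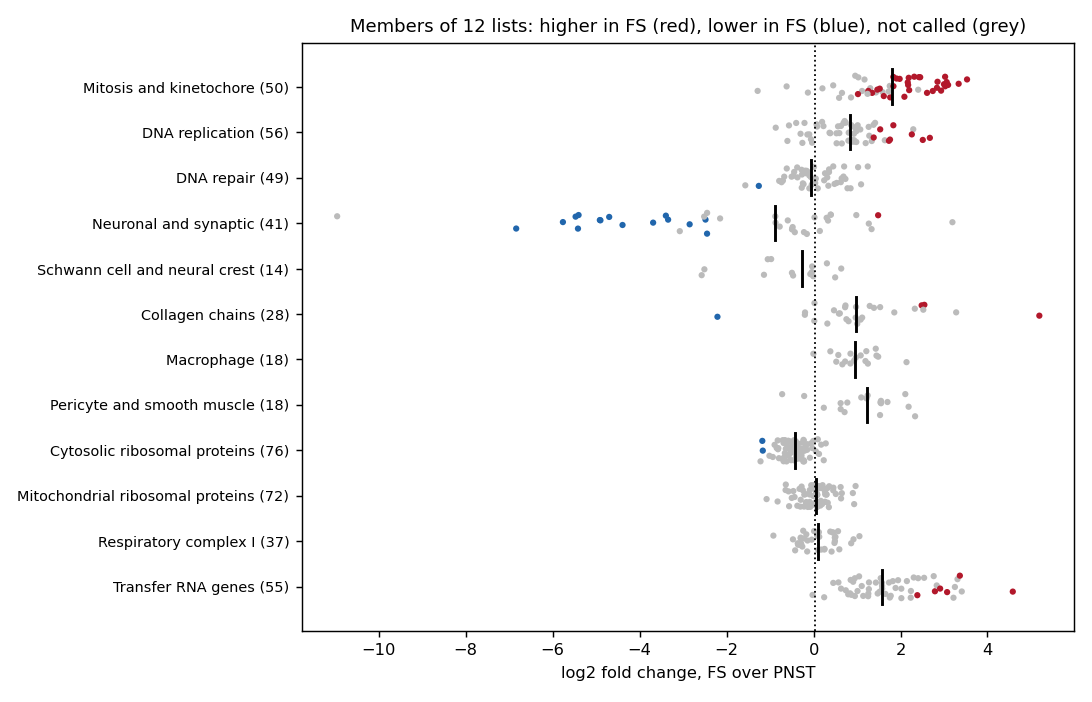
Log2 fold change (x axis, FS relative to PNST) of each tested member of 12 lists and families (y axis, number tested in brackets), in red where called higher, blue where called lower and grey where not called. A black bar marks each median and a dotted line the median over all tested genes (0.03). The mitosis median lies at 1.80 and the neuronal median at −0.88, while the 72 mitochondrial ribosomal protein genes centre on 0.05.

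Ion channel and transporter families had calls in both directions. Of 33 potassium channel genes, 4 (12.1%) were lower and none higher, while 18 had a log2 fold change above 0 and the median was 0.27. The lower ones included *KCNH2*, the channel of the cardiac repolarizing current (−3.65 ± 0.49 SE, adjusted p = 0.00314), and *KCNT2* (−3.84 ± 0.77 SE, 0.0164). Of 13 calcium channel genes, 2 were lower and 1 higher. *CACNG7*, an auxiliary subunit that also binds AMPA receptors, had no count in any FS and 5.45, 12.1 and 24 CPM in PNST, at least 31.4-fold against the floor of 3 counts. *CACNA1B*, the N-type channel of nerve endings, was lower (−3.94 ± 0.73 SE, adjusted p = 0.012). *CACNA2D1*, an auxiliary subunit, was higher at 163, 136, 64.1 and 141 CPM against 0.296, 5.67 and 25.4 CPM (3.87 ± 0.74 SE, adjusted p = 0.0128).

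Of 18 P-type ATPases 3 were lower and none higher, and the count was 1 when any of S1-03, S1-05, S1-09, S1-10 and S1-11 was left out. The other members lay on both sides, with 9 of 18 above 0. Of 32 ABC transporters 4 were lower and 1 higher. *ABCB11*, the bile salt export pump of liver, was at 1.8, 0.566, 0 and 0.475 CPM in FS and 20.5, 98.7 and 247 CPM in PNST (−6.90 ± 0.91 SE, adjusted p = 0.0031), a wide range among PNST with no overlap. *ABCA9* and *ABCG4* were lower, with log2 fold changes of −2.70 ± 0.47 SE and −2.99 ± 0.63 SE (adjusted p = 0.00924 and 0.0186). Among 211 solute carriers, 10 (4.74%) were higher and 7 (3.32%) lower, shares near those over all genes. Leaving out S1-10 gave 4 higher, leaving out S1-03 gave 6 and leaving out S1-12 gave 18, and the lower count was 4 when S1-05 or S1-09 was left out. The bicarbonate transporter *SLC4A7* (1.73 ± 0.30 SE) and the creatine transporter *SLC6A8* (3.27 ± 0.57 SE) led the higher ones, and *SLC6A17*, a vesicular amino acid transporter of neurons (−2.64 ± 0.42 SE), and *SLC12A5*, the chloride extruder of mature neurons (−2.75 ± 0.50 SE), were among the lower (adjusted p = 0.00903, 0.0094, 0.00723 and 0.0104).

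Matrix lists had calls in both directions. Of 28 tested collagen chain genes, 25 had a log2 fold change above 0, but 3 were called higher and 1 lower. None of these 4 calls held whichever tumor was left out, and the number higher ran from 0 without S1-11 and 1 without S1-03, S1-05, S1-10 or S2-07 to 6 without S1-02. *COL15A1*, a chain of basement membrane zones (2.55 ± 0.56 SE, adjusted p = 0.0217), lost its call without S1-10 (adjusted p = 0.0563) and without S1-11. *COL14A1* (2.49 ± 0.60 SE), which associates with collagen fibrils, and *COL11A1* (5.19 ± 1.38 SE), a minor fibrillar chain, each lost theirs when any 1 of 7 tumors was left out, up to adjusted p of 0.075 without S1-10 and 0.0935 without S1-12. The fibrillar collagen sum was 36315, 120155, 38646 and 25949 CPM in FS and 20056 to 43576 CPM in PNST, so that S1-11 alone lay outside the PNST range.

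Genes that process collagen gave 3 higher of 29. *P3H4*, a partner of the enzymes that modify procollagen lysines, was at 62.5, 94.5, 97.1 and 39.4 CPM in FS and 11.5, 15.6 and 31.5 CPM in PNST (1.91 ± 0.36 SE, adjusted p = 0.0122). *ADAMTS3*, which removes procollagen propeptides, rose by 3.56 ± 0.73 SE (adjusted p = 0.0177), and both held whichever tumor was left out. Among proteases, *ADAM19* (1.67 ± 0.34 SE) and *ADAMTS7* (2.34 ± 0.39 SE), a protease that cleaves matrix proteins, were higher (adjusted p = 0.0179 and 0.00855). Heparan sulfate genes gave 3 higher of 20, with the sulfotransferase gene *HS2ST1* at 1.5 ± 0.28 SE and the glypican gene *GPC4* at 2.89 ± 0.61 SE (adjusted p = 0.0126 and 0.0191).

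Of 26 tenascin and matricellular genes, 3 were lower and 1 higher, while 13 had a log2 fold change above 0 and the median was 0.21. With *TNXB*, *TNR*, the tenascin of the nervous system (−5.84 ± 1.05 SE, adjusted p = 0.0103), and *THBS3*, a thrombospondin (−1.70 ± 0.32 SE, 0.0128), were lower, and all 3 held whichever tumor was left out. *CCN4*, a secreted WNT target also known as WISP1, was higher (4.12 ± 0.78 SE, adjusted p = 0.0127). Of 24 hyaluronan and chondroitin sulfate genes, 2 were lower and 1 higher, while 18 had a log2 fold change above 0 and the median was 0.45. Of these 3 calls, that of *ITIH5* alone held whichever tumor was left out. *ITIH5*, a heavy chain of the inter-alpha-trypsin inhibitor family that binds hyaluronan, was lower at 38.8, 108, 58.6 and 89.3 CPM against 393, 803 and 1104 CPM (−3.38 ± 0.41 SE, adjusted p = 0.00192). The elastic fibre list gave 2 lower of 19, including *FBLN2*, the fibulin gene (−1.32 ± 0.28 SE, adjusted p = 0.0206).

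Signalling lists had calls in both directions. Among 43 genes of TGF-beta and BMP signalling, 4 were higher and 3 lower. *SMAD9*, a transducer of BMP signals, was higher at 20.8, 57.1, 93.4 and 36.6 CPM against 0.282, 2.3 and 8.15 CPM (4.16 ± 0.66 SE, adjusted p = 0.00782), as were the BMP receptor gene *BMPR2* (1.32 ± 0.23 SE, 0.00901) and the ligand gene *GDF11* (2.58 ± 0.48 SE, 0.0124). *BMPER*, a secreted BMP-binding protein, was lower at 19.4, 18.7, 1.83 and 28 CPM against 153, 222 and 324 CPM (−3.65 ± 0.49 SE, adjusted p = 0.00315). *TGFB1* was lower (−1.18 ± 0.26 SE, adjusted p = 0.0214) and lost its call without S1-11 (adjusted p = 0.0615). *SMAD9*, *BMPR2*, *GDF11* and *BMPER* held whichever tumor was left out.

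Of 53 genes of RAS and MAP kinase signalling, 6 were higher and 3 lower. *MAPKAPK2*, a kinase downstream of p38, was at 78.3, 144, 84.2 and 86 CPM in FS against 33.8, 41.5 and 44.2 CPM (1.28 ± 0.23 SE, adjusted p = 0.00973). The feedback inhibitors *SPRED1* (1.67 ± 0.32 SE) and *DUSP4* (1.91 ± 0.39 SE) were also higher (adjusted p = 0.0139 and 0.017). Lower were *MAPK11*, given above, the scaffold gene *MAPK8IP2* (−3.55 ± 0.47 SE, 0.0031) and *RALGPS1*, an activator of RAL GTPases (−1.93 ± 0.32 SE, 0.00822).

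Of 52 axon guidance genes, 4 were higher and 1 lower. *PLXNA4*, a semaphorin receptor, was at 271, 74.7, 133.7 and 98.8 CPM in FS and 2.81, 10 and 23.8 CPM in PNST (3.48 ± 0.51 SE, adjusted p = 0.0052). *ROBO1*, a receptor for SLIT proteins, was higher (3.99 ± 0.86 SE, adjusted p = 0.0212), and the ligand gene *SLIT3* was lower (−1.80 ± 0.39 SE, adjusted p = 0.0214). *ROBO1* lost its call without S1-11 (adjusted p = 0.0513), and *SLIT3* without S1-11 (adjusted p = 0.056) or S2-06.

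WNT signalling gave 5 higher and 1 lower of 44, and none of the 5 held whichever tumor was left out. The number higher was 0 without S1-11, 1 without S1-03 or S1-10, 2 without S1-12 and 3 without S1-09 or S2-07. *WNT5B*, a ligand of the noncanonical branch (2.73 ± 0.59 SE, adjusted p = 0.0214), lost its call without S1-11 (adjusted p = 0.0537). The WNT inhibitor *WIF1* had the largest positive log2 fold change of all DEGs (7.05 ± 1.55 SE, adjusted p = 0.0221), but at 3.59, 334, 1033 and 0 CPM in FS it was high in S1-11 and S1-12 alone, against 0, 2.53 and 5.22 CPM in PNST. It missed the threshold without S1-03 (adjusted p = 0.0511) or S1-10 (adjusted p = 0.0575), and without S1-02, S1-04, S1-11 or S1-12 it fell under the count filter and was not tested. *TCF7L2*, a nuclear effector of the pathway, was lower (−1.76 ± 0.34 SE, adjusted p = 0.0153) and held.

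Other calls were spread over further pathways. *HHIP*, the decoy that binds hedgehog ligands, was lower at 0.359, 13.6, 0 and 12.8 CPM against 23.8, 179 and 318 CPM (−4.51 ± 1.01 SE, adjusted p = 0.0237). *TEAD4*, a DNA-binding partner of YAP, was higher (1.57 ± 0.24 SE, adjusted p = 0.00663), and *DEPTOR*, an inhibitor of mTOR, was lower (−2.10 ± 0.32 SE, adjusted p = 0.0062). In the retinoid list, where 5 of 18 tested genes had a log2 fold change above 0, *CRABP2*, a carrier of retinoic acid to the nucleus, was higher (1.70 ± 0.35 SE, adjusted p = 0.0181) and the receptor gene *RXRG* was lower (−3.48 ± 0.54 SE, adjusted p = 0.00657). All 5 genes held whichever tumor was left out. Phosphodiesterases and adenylyl cyclases, which break down and make cyclic nucleotides, gave 5 higher of 22 and none lower, with 3 higher without S1-03 or S1-11, and *PDE7B* (2.01 ± 0.39 SE, adjusted p = 0.015) and *PDE4D* (2.44 ± 0.48 SE, adjusted p = 0.0154) held whichever tumor was left out.

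Among metabolic lists, that of amino acid transport and the ATF4 response had 7 of 43 genes (16.3%) higher and none lower. The count was 3 without S1-03, S1-10 or S2-07 and 4 without S1-02 or S1-11, and 3 genes held whichever tumor was left out. *VLDLR*, a lipoprotein receptor and ATF4 target, was at 44.9, 37.9, 9.16 and 29.9 CPM in FS and 1.77, 5.05 and 7.88 CPM in PNST (2.64 ± 0.45 SE, adjusted p = 0.00861). The glutamine transporter gene *SLC38A1* (2.35 ± 0.47 SE) and *BCAT1*, which transaminates branched-chain amino acids (1.89 ± 0.41 SE), were higher (adjusted p = 0.0163 and 0.0214). In the serine and one-carbon list of 30 genes, 3 were higher and 1 lower. With *ALDH1L2*, the mitochondrial folate enzyme *MTHFD2* was higher (1.93 ± 0.38 SE, adjusted p = 0.0151), and *AMT* of the glycine cleavage system was lower (−1.52 ± 0.31 SE, adjusted p = 0.0181).

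*SQLE*, which catalyses the squalene epoxidase step of cholesterol synthesis, was at 23, 80.3, 65.9 and 27.6 CPM in FS and 4.66, 9.83 and 13 CPM in PNST (2.36 ± 0.40 SE, adjusted p = 0.00883) and was the only one of the 8 called genes of fatty acid and cholesterol synthesis to hold whichever tumor was left out. The fatty acid list had 3 higher and 1 lower of 25, the cholesterol list 3 higher and 1 lower of 26, and each had at most 1 higher without any 1 of S1-03, S1-05, S1-09, S1-10, S1-11 and S2-07. *FADS1*, a fatty acid desaturase, had a log2 fold change of 1.98 ± 0.46 SE (adjusted p = 0.0278, and 0.0814 without S1-11). *SLC2A1*, the glucose transporter GLUT1, was the 1 called gene of 46 in the glycolysis and hypoxia list, at 30.9, 43, 18.3 and 33.7 CPM against 2.15, 7.16 and 12.1 CPM (2.26 ± 0.43 SE, adjusted p = 0.0136).

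Among 27 transcription factors of the mesenchymal transition, 4 were higher and 1 lower. With *SALL1* and *TWIST2*, these were *TBX3*, a T-box factor of limb and gland development (2.67 ± 0.49 SE, adjusted p = 0.0112), and *RUNX3*, a runt-domain factor (3.59 ± 0.76 SE, 0.0198). The lower factor, *EBF1* (−1.89 ± 0.42 SE, adjusted p = 0.0232), an early B-cell and adipocyte factor, lost its call without S1-10 (adjusted p = 0.0516). The large family of ZNF and ZSCAN zinc-finger genes had few calls, 5 higher and 1 lower of 274, and a median log2 fold change of −0.08. The number higher was 1 without S1-03, S1-05 or S1-10, 2 without S1-12, S2-06 or S2-07 and 3 without S1-09. In the polycomb and trithorax list 3 of 38 were higher, led by *EZH2*, the histone methyltransferase of polycomb repressive complex 2 (1.52 ± 0.38 SE, adjusted p = 0.0345, and 0.0947 without S1-11), and none of the 3 held whichever tumor was left out.

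Imprinted genes included some of the larger contrasts at high levels. *GNAS*, which encodes the stimulatory G protein alpha subunit, was at 382, 397, 434 and 299.8 CPM in FS and 20.1, 55.2 and 114 CPM in PNST (2.66 ± 0.39 SE, adjusted p = 0.0052). *PEG3*, a paternally expressed zinc-finger gene, was lower at 36.3, 82, 11 and 14.3 CPM against 224, 283 and 386 CPM (−3.0 ± 0.52 SE, adjusted p = 0.00911). *PLAGL1*, another imprinted zinc-finger gene, was higher (3.06 ± 0.60 SE, adjusted p = 0.0154). These were the 3 called of 19 tested.

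The cytoskeleton list was split, with 4 of 52 actomyosin and adhesion genes higher and 4 lower. The higher count was 2 without S1-03, S1-10 or S1-11 and 7 without S1-02. *ACTN1*, the actin cross-linker alpha-actinin, was at 172, 334, 115 and 67.9 CPM in FS and 17.6, 27.1 and 56.7 CPM in PNST (2.48 ± 0.45 SE, adjusted p = 0.0104). *ABLIM1*, an actin-binding LIM protein, was lower at 72.2, 44.1, 34.8 and 34.2 CPM against 174, 299 and 410.2 CPM (−2.63 ± 0.35 SE, adjusted p = 0.0031), as were *CAVIN2*, a coat protein of caveolae (−1.70 ± 0.24 SE, 0.00455), and the focal adhesion adaptor gene *PXN* (−1.41 ± 0.26 SE, 0.0111). In the skeletal muscle list, 6 of 22 genes passed the filter and *TTN* and *NEB* were called higher. *TTN* stood at 65.4, 9392, 40.3 and 36.1 CPM in FS and 17.7, 26.8 and 35.6 CPM in PNST, and without S1-11 neither was called (adjusted p = 0.125 for *TTN* and 0.368 for *NEB*). *TTN* also lost its call without S1-10.

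Genes of protein synthesis had few calls, but the ribosomal protein genes leaned one way. Of 76 cytosolic ribosomal protein genes, 6 had a log2 fold change above 0, the median was −0.42, and 2 were called, both lower. Their summed level was 9012, 14993, 14298 and 9686 CPM in FS and 14105 to 20183 CPM in PNST. None of 72 mitochondrial ribosomal protein genes, 37 complex I genes and 36 proteasome genes was called by edgeR or DESeq2, and 5, 3 and 4 of them had an unadjusted p under 0.05. Genes for transfer RNA leaned the other way, with 54 of 55 tested above 0, a median of 1.58 and 6 called, all higher, while S1-12 held the most at 8805 CPM against 1421 to 2896 CPM in the other FS and 442 to 1994 CPM in PNST. Transfer RNA genes have near-identical copies, so single calls among them are uncertain, and 1 of the 6 held whichever tumor was left out. The number was 2 without any 1 of S1-03, S1-04, S1-05, S1-09, S1-10 and S1-12, and 9 without S2-07.

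Of the immune lists, chemokines and cytokines had 2 higher and 2 lower of 26, and complement had 1 lower of 20. The other immune lists had no call by edgeR. Macrophage markers had a log2 fold change above 0 in 17 of 18 and a median of 0.95, but none was called by edgeR (5 at an unadjusted p under 0.05, and 2 by DESeq2), and their summed level was 2178 CPM in S1-02 and 273 CPM in S1-12. Pericyte and smooth muscle markers were similar, with 16 of 18 above 0, a median of 1.23 and none called by edgeR (5 at an unadjusted p under 0.05, and 2 by DESeq2).

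The 21 lists with no called gene held 479 tested members. Of these, 47 were higher and 24 lower at an unadjusted p under 0.05, against 3334 of all 14659 tested genes in either direction. DESeq2 called 10 of the members higher and 5 lower. Besides those given above, they include apoptosis regulators (38 tested, median log2 fold change 0.05), the interferon response (36, median 0.37), antigen presentation (24, median 0.82), translation factors (46, median −0.13) and aminoacyl-tRNA synthetases (38, median −0.15). The 8 tested SOX factors and 9 tested S100 genes, families from which nerve sheath markers are drawn, also had no call by edgeR, with medians of 0.0014 and 0.05. At an unadjusted p under 0.05 there were 2 SOX factors and 1 S100 gene, and DESeq2 called 2 SOX factors.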

How the data were processed

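Total RNA from formalin-fixed, paraffin-embedded sections was depleted of ribosomal RNA, made into libraries with the Ion Total RNA-Seq Kit V2 and sequenced on an Ion Proton. The authors aligned the reads to the dog genome assembly ROS-canfam-01 with STAR and deposited whole-number counts per gene from htseq-count, with no normalization. The RefSeq table used for gene types is of another dog assembly, so no coordinates are given, and 39178 of 41818 gene symbols matched it. Whether counting used strand is not given in the sources used here, so overlapping and antisense genes are uncertain.

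Runs of the same tumor were summed, so that each tumor is 1 sample, and the p-values treat tumors as replicates. Lines of reads outside genes (41.8% to 57.5% of reads in FS and 46.1% to 54.6% in PNST), with several alignments or ambiguous were left out. The count filter required 10 counts or more in 4 or more of the 10 tumors, and genes passing it were tested with edgeR 4.0.16 (R 4.3.3; TMM, quasi-likelihood F test, Benjamini-Hochberg over all 14659 genes). A gene was called where its adjusted p was below 0.05 and its log2 fold change exceeded 1 in size. The SE given with a log2 fold change was derived from that fold change and the F statistic of its test, not estimated separately. The steps were tested on simulated counts with known changes. CPM is the count divided by the TMM-scaled library size, and ratios against few counts carry exact 95% intervals or a floor of 3 counts over the group, which cover counting error only.

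Results for some genes are not reported here. Named genes otherwise were the 8 of smallest p in each direction with a gene name, up to 4 called members in each direction of each list by smallest p, the lineage markers, and genes said in the text to be picked after their values were seen. The comparison, its members and the gene lists were chosen with earlier results of these data known, and *SEZ6L2*, *RIC3* and other listed genes were already known to differ. Alternatives changed the normalization, the count filter, the dispersion estimate, the tumors in the fit and the tool (DESeq2 1.42.0, run without the count filter). The tumor names begin with S1 or S2, which was used as a possible sequencing group.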

Additional observations from a re-analysis of the deposited data

Results flagged for a closer look

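Of 106 groups of values examined, 15 held a tumor far from the others of its group by Dixon's test at the 95% level. Chance would give this in about 1 in 20 groups of independent, normally distributed values. The test was run on CPM, which need not be so distributed, and the groups share tumors. The 15 are therefore not to be read against that rate. S1-11 stood apart among FS for skeletal muscle genes (summed 12171 CPM, with *TTN* at 9392 CPM), for fibroblast genes (summed 111172 CPM, with *COL1A1* at 42625 CPM) and for *MAPKAPK2* (143.7 CPM). On the low side it stood apart for *SEZ6L2* (1.13 CPM), which rests on 2 counts. S2-06, the grade 3 FS, stood apart for *CDK1* (180.5 CPM) and *S100B* (9.98 CPM). S1-12 did so for *TWIST2* (222 CPM). Among PNST, S1-09 stood apart for *S100B* (74.8 CPM) and for the Schwann cell list (summed 949 CPM). S1-04 stood apart for *COL1A1* (13375 CPM) and *SMAD9* (8.15 CPM) and on the low side for *XRCC4* (25.4 CPM), and S2-07 for *REST* (43.3 CPM). For the called genes among these, each FS and each PNST stayed on its own side.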

How the results depend on the processing

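Grouped by histology, no gene was called (0 higher, 0 lower, 0 mitosis and 0 neuronal genes), and the cause was not tested. Other settings moved the numbers of DEGs higher and lower as follows: 286 and 237 with the S1 tumors alone, 260 and 201 with all tumors thinned to 507728 counts, and 1054 and 668 with DESeq2. DESeq2 ran without the count filter and gave 19740 genes an adjusted p, against 14659 by edgeR. It shared 500 of the higher and 359 of the lower DEGs. Leaving out 1 tumor gave 245 to 630 higher and 209 to 371 lower, the fewest without S1-10. Calls summed over lists, 290 in all, became 191 (S1 tumors alone), 537 (DESeq2) and 168 to 328 with 1 tumor left out. Mitosis genes called higher became 13 (S1 tumors alone), 12 of 19 tested (thinned) and 16 to 34 with 1 tumor left out, with 16 without S2-06 and 18 without S1-10. Neuronal genes called lower numbered 10 to 21 in all settings but histology, with the 21 from DESeq2 among 62 genes without the count filter. Chosen after seeing the data, leaving out the 4 tumors with keratinocyte genes gave 288 and 132 DEGs and 175 list calls, and leaving out S1-10 and S1-11 together gave 69 and 96 DEGs, 86 list calls and 6 mitosis genes. Fewer samples were tested in these settings.

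The log2 fold change of *SOX10*, not called, turned positive with RLE normalization (0.017), with the name prefix as a term (0.011), with the S1 tumors alone (0.27) and without S1-11, S1-12 or S2-06, over a range of −0.0845 to 0.32 with 1 tumor left out. That of *ERBB3*, not called, turned positive with the S1 tumors alone (0.20), with S1-04 and S1-05 as 1 tumor (0.25), when thinned (0.10) and without S1-11, S2-06, S1-04 or S1-05, over a range of −0.33 to 0.36 with 1 tumor left out. *AURKB*, not called, turned to 0.12 without the 4 tumors with keratinocyte genes. No called gene named here changed direction under any of these settings. With upper quartile normalization the split was 459 higher and 396 lower. No paired analysis was possible because each tumor comes from its own sample and the replicate numbers only follow the order of the samples. Depth limits the FS S1-12 most, which holds 507728 counts.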
